A study of Mus musculus with 6 samples.

Results

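The genes described here are a set of 32 named for glycolysis and the response to low oxygen, from the glucose transporters through the glycolytic enzymes to genes that the hypoxia-inducible factor (HIF) is known to switch on. They were found by gene name in a deposited table of 14005 genes, which gave values for 31 of them, and Adm was not analysed here. The values come from polyA-selected RNA of primary mouse bone-marrow-derived macrophages (BMDM) on the C57BL/6J background, from pooled male and female mice. Of the 6 libraries, 3 were labelled Txn1 KO and 3 wild type (WT). The genotype label of the Txn1 KO libraries joins the Txn1 allele Txn1tm1.1Ees/J with the strain name B6.129P2-Lyz2tm1(cre)lfo/J, in which a Cre recombinase is placed in Lyz2, the lysozyme gene that is active in myeloid cells. WT mice carried neither allele by their label, and mice with the Cre alone were not analysed here. Per the series' design text, the study asked what loss of thioredoxin-1, the protein made from Txn1, does to genes of the NLRP1 inflammasome.

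Glycolysis breaks glucose down to pyruvate through a chain of enzymes, several of which exist as isozymes encoded by separate genes. Activated macrophages are known for drawing on it, exporting lactate made from pyruvate. HIF-1α, the product of Hif1a, is marked for destruction by oxygen-dependent prolyl hydroxylases; when it is stable it binds short motifs in the promoters of many glycolytic genes and raises their transcription. Thioredoxin-1 is a small protein that keeps thiol groups of other proteins reduced.

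The libraries held 25939608, 31127228 and 22508616 reads over the listed genes with the label Txn1 KO, against 29716640, 38726953 and 35988877 with the label WT. Values are normalized counts, the authors' read counts divided by 1 size factor per library, and the floor of 3 reads lay at 2.33 to 4.04 normalized counts. Txn1 itself averaged 12349 ± 367 normalized counts in libraries labelled Txn1 KO and 12580 ± 532 in WT libraries (SD, n = 3 each), a log2 difference of -0.03 with a limma adjusted p of 0.686. The gene-level value therefore does not show the deletion. That Txn1 was lost rests on the labels, and the libraries are called labelled Txn1 KO throughout. Lyz2, which holds the Cre by the label of the Txn1 KO libraries, was at 3118 ± 1281 normalized counts in libraries labelled Txn1 KO and 364408 ± 3550 in WT libraries. The groups thus differ at the gene that the label names. Effects of the Cre allele, of low Lyz2 and of Txn1 loss cannot be told apart between these groups. The sum of the other 9 macrophage markers was 156687 to 157479 in libraries labelled Txn1 KO and 156394 to 160554 in WT libraries. One library of each group, labelled Txn1 KO 3 and WT 1, held liver transcripts: Alb, the albumin gene, was at 580.04 in Txn1 KO 3 and 642.94 in WT 1, and at most at 0.838 in the other 4 libraries. Calls and counts that change without the 2 libraries are given beside the results. The labels do not say whether replicates came from separate mice or cultures, so p-values measure only the spread between these libraries.

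Promoter sequences of 6 of the genes are shown here because they hold the core letters of the HIF binding motif, ACGTG or GCGTG on either strand, and belong to genes that went different ways between the groups. They are RefSeq sequences of the build GRCm38.p6, each running from 250 to 6 bases before the start of transcription, 5′ to 3′ on the strand of the gene, with the motif letters in capitals. The Slc2a1 window is chr4:119108495-119108739 on the plus strand, the Pgk1 window is chrX:106186850-106187094 on the plus strand and the Slc16a3 window is chr11:120948817-120949061 on the plus strand; these 3 genes were higher in libraries labelled Txn1 KO. The Slc2a6 window is chr2:27028004-27028248 on the minus strand and the Ldha window is chr7:46845554-46845798 on the plus strand, and both genes were lower. Ldha has another RefSeq start, whose window is not shown. Bnip3, with its window at chr7:138909512-138909756 on the minus strand, did not pass the test in either direction. GENCODE M21 exons cover 29 bases of the Slc2a1 window, 9 of the Slc16a3 window and 8 of the Bnip3 window, and none of the other 3 windows.
Slc2a1: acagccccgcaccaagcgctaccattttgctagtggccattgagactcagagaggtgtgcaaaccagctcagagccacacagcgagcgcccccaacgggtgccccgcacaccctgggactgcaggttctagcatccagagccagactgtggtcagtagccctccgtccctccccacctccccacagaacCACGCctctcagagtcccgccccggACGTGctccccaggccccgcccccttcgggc
Pgk1: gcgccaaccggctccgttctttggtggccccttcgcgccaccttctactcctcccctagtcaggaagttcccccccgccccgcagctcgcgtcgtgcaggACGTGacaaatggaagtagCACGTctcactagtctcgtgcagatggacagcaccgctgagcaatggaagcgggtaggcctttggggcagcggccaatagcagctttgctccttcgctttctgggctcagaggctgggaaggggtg
Slc16a3: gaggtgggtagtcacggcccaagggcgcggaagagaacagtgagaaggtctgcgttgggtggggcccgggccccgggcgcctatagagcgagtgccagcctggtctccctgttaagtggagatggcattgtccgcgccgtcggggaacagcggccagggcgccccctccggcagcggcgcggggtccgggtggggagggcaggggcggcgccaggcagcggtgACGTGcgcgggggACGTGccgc
Slc2a6: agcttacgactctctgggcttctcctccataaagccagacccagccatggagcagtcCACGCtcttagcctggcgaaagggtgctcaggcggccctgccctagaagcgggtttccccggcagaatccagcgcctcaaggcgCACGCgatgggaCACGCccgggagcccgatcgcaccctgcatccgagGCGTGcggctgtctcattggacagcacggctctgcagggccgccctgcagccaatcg
Ldha: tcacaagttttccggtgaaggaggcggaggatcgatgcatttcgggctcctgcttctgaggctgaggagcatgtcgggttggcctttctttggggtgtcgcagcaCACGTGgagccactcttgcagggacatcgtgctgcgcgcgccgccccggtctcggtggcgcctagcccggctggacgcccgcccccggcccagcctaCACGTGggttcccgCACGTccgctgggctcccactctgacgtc
Bnip3: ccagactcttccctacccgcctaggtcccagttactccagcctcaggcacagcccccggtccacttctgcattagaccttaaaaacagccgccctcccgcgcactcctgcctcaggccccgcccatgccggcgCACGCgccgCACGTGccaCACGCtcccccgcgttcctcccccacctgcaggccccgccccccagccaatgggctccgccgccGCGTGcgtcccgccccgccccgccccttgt

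Libraries labelled Txn1 KO had more RNA of 10 of the 31 measured genes and less of 2, while 19 did not pass the test. The 10 that rose were the glucose transporter gene Slc2a1, the enzyme genes Hk2, Pfkl, Pfkfb3, Aldoa, Pgk1 and Pkm, the lactate exporter gene Slc16a3, the HIF hydroxylase gene Egln3 and the collagen hydroxylase gene P4ha2. The 2 that fell were Slc2a6, another glucose transporter gene, and Ldha, the main lactate dehydrogenase gene. The changes were small: only Slc2a1 passed 1.5-fold among the 12 called genes. The test was limma on log2(normalized count + 1), two-sided, with Benjamini-Hochberg adjustment over 13977 genes and a threshold of 0.05, and fold changes are on that scale unless a ratio of means is named.

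The 12 called genes are 38.7% of those measured, beside 21.5% of all genes tested. Counted by direction, 10 of 31 genes stand beside 11.5% called higher among all genes, and 2 of 31 beside 9.97% called lower. Most of these genes are abundant, and abundant genes are called more often: of the 26 with a mean of at least 1000 normalized counts, 10 were called, beside 33.6% of the 5149 genes at that level. By direction, 8 of the 26 were higher, beside 16.4% of the 5149, and 2 of the 26 were lower, beside 17.2%. The median log2 change of the 31 genes was 0.011, against -0.005 for all genes tested, and their median absolute change was 0.087, against 0.126. The 3 values of each group did not overlap for 14 of the 31, beside 36.2% of all genes, and these 14 include all 12 called genes. Without the 2 libraries that hold liver transcripts, 8 genes were higher and 2 lower.

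**Figure D1:**
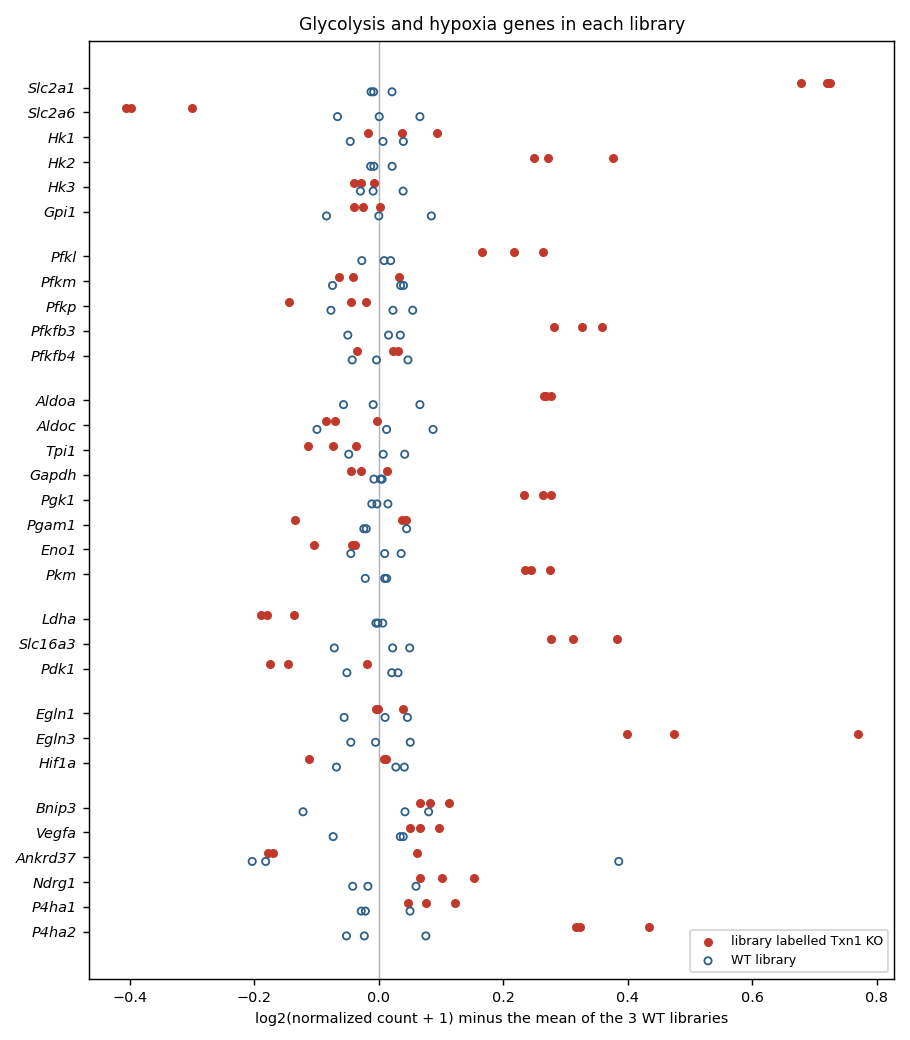
Each row is 1 gene and each point 1 library, plotted as log2(normalized count + 1) minus the mean of the 3 WT libraries, with filled points for libraries labelled Txn1 KO and open points for WT libraries. Slc2a1 stands farthest to the right, Slc2a6 and Ldha lie to the left of WT, and the 2 groups overlap for most of the genes that did not pass.

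Glucose enters the cell through transporters and is then trapped by hexokinases. Of the 6 genes at these steps, 2 rose and 1 fell. Slc2a1, which encodes the glucose transporter GLUT1 and lies at chr4:119108711-119137983 on the plus strand (GENCODE M21, GRCm38), was at 2927, 3014 and 3024 normalized counts in libraries labelled Txn1 KO and at 1819, 1856 and 1814 in WT libraries. Every library labelled Txn1 KO lay far above every WT library, and the spread within each group was small. The log2 change was 0.71 ± 0.040 (SE; limma adjusted p = 8.10e-10), a ratio of means of 1.63. Slc2a6, which encodes GLUT6, a related transporter found mainly on internal membranes, was at 2105, 2254 and 2094 in libraries labelled Txn1 KO and at 2651, 2777 and 2906 in WT libraries. Here the order was the opposite, again with no overlap, and the log2 change was -0.37 ± 0.046 (SE; limma adjusted p = 1.42e-05).

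Hk2, the inducible hexokinase gene (chr6:82725025-82774454, minus strand), was at 2516, 2555 and 2745 normalized counts in libraries labelled Txn1 KO and at 2104, 2097 and 2147 in WT libraries. The groups did not overlap, and the log2 change was 0.30 ± 0.043 (SE; limma adjusted p = 7.25e-05). The other 2 hexokinase genes did not pass: Hk1, the housekeeping form, had a log2 change of 0.04 (adjusted p = 0.572) and Hk3, the form typical of myeloid cells, one of -0.03 (adjusted p = 0.632). Hk3 was at 18819 ± 220 normalized counts in libraries labelled Txn1 KO and 19162 ± 470 in WT libraries (SD, n = 3 each). Gpi1, which turns glucose 6-phosphate into fructose 6-phosphate, had a log2 change of -0.02 and overlapping groups.

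Phosphofructokinase commits sugar to glycolysis, and the PFKFB enzymes make and remove fructose 2,6-bisphosphate, its strongest activator. Of the 5 genes here, 2 rose and 3 did not pass. Pfkl, the liver-type subunit gene (chr10:77986947-78010083, minus strand), was at 2009, 2149 and 2081 normalized counts in libraries labelled Txn1 KO and at 1800, 1756 and 1814 in WT libraries. Pfkfb3, whose enzyme chiefly makes the activator (chr2:11471433-11554077, minus strand), was at 1660, 1697 and 1610 in libraries labelled Txn1 KO and at 1279, 1338 and 1356 in WT libraries. Neither gene's groups overlapped. Their log2 changes were 0.22 ± 0.044 for Pfkl and 0.32 ± 0.047 for Pfkfb3 (SE; limma adjusted p = 0.00155 and 7.42e-05). The muscle-type gene Pfkm (-0.02), the platelet-type gene Pfkp (-0.07) and Pfkfb4 (0.01) did not pass on the log2 scale, with adjusted p of 0.841, 0.303 and 0.946. Of these, Pfkp shares 748 exonic bases with Pitrm1 on the opposite strand, so some reads of the 2 genes cannot be told apart if strand was not used.

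**Figure D2:**
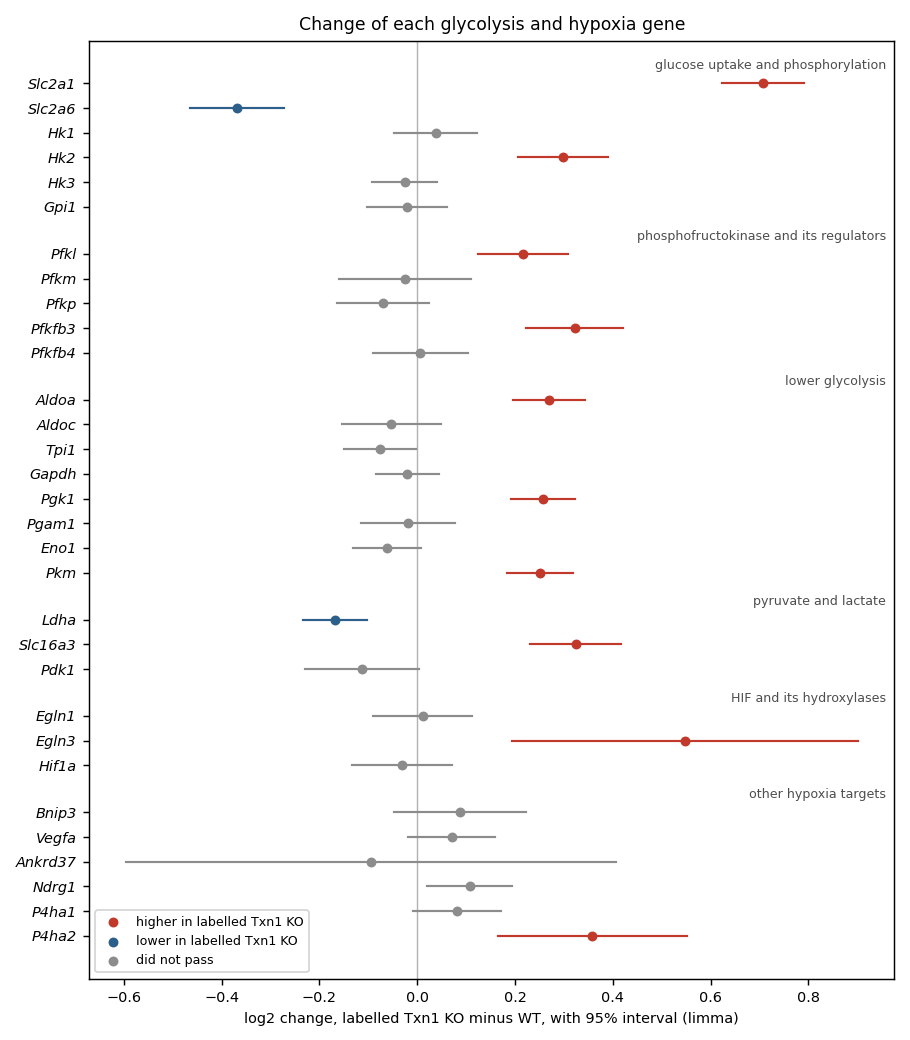
Points are log2 changes of the 31 genes, labelled Txn1 KO minus WT, and lines are 95% intervals from limma, grouped by role. The 10 genes called higher lie between 0.22 and 0.71, the 2 called lower at -0.17 and -0.37, and the remaining points within 0.113 of 0.

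The lower part of glycolysis yields ATP and ends with pyruvate. Of its 8 genes, 3 rose and 5 did not pass. Aldoa, the main aldolase gene (chr7:126795234-126800751, minus strand), was at 60715, 60864 and 61217 normalized counts in libraries labelled Txn1 KO and at 52896, 48582 and 50212 in WT libraries. Pgk1, which encodes the first ATP-yielding enzyme (chrX:106187100-106203699, plus strand), was at 18142, 18528 and 18689 in libraries labelled Txn1 KO and at 15593, 15316 and 15403 in WT libraries. Pkm, the pyruvate kinase gene of most tissues (chr9:59656368-59679375, plus strand), was at 95340, 94700 and 97338 in libraries labelled Txn1 KO and at 81189, 79280 and 81014 in WT libraries. In all 3 genes the lowest library labelled Txn1 KO was above the highest WT library. The log2 changes were alike in size, 0.27 ± 0.035 for Aldoa, 0.26 ± 0.031 for Pgk1 and 0.25 ± 0.032 for Pkm, with limma adjusted p of 2.03e-05, 8.48e-06 and 1.67e-05.

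The genes of the steps between and beside these enzymes did not pass. Gapdh, the dehydrogenase often used as a loading control, was at 35606, 36623 and 35179 normalized counts in libraries labelled Txn1 KO and at 36372, 36102 and 36435 in WT libraries, and the groups overlapped. Tpi1, which interconverts the triose phosphates, had a log2 change of -0.08, with an interval of -0.149 to -0.002 and an adjusted p of 0.145. Eno1, the enolase gene, stood at -0.06 (adjusted p = 0.217), Aldoc, an aldolase gene best known from brain, at -0.05 (adjusted p = 0.5) and Pgam1, the phosphoglycerate mutase gene, at -0.02 (adjusted p = 0.835). Several of these genes share sequence with copies elsewhere, which makes their counts uncertain: 53.9% of the 50-base stretches of Pgk1 exons occur in another gene, as do 36.2% of those of Pgam1, 26.0% of Eno1, 25.8% of Pkm and 25.1% of Gapdh. The copies named here had far fewer counts than the genes they match. Pgk1-rs7, a copy of Pgk1, averaged 12.8 normalized counts in libraries labelled Txn1 KO and 9.001 in WT libraries. AC160637.1, a gene model that shares 767 exonic bases with Pkm on the same strand, was at 1518 ± 183 in libraries labelled Txn1 KO and 1085 ± 37.4 in WT libraries (SD, n = 3 each).

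At the end of the pathway pyruvate is either reduced to lactate and exported or sent to the mitochondria, and of the 3 genes of this branch 1 rose and 1 fell. Slc16a3, which encodes the lactate exporter MCT4 (chr11:120948480-120960868, plus strand), was at 3009, 3084 and 3239 normalized counts in libraries labelled Txn1 KO and at 2571, 2522 and 2364 in WT libraries. Ldha, whose enzyme turns pyruvate into lactate (chr7:46841475-46855627, plus strand), was at 18265, 17591 and 17720 in libraries labelled Txn1 KO and at 20048, 20155 and 20002 in WT libraries. The exporter gene was thus higher and the enzyme gene lower, both with no overlap. The log2 changes were 0.32 ± 0.044 for Slc16a3 and -0.17 ± 0.031 for Ldha (SE; limma adjusted p = 3.69e-05 and 6.40e-04). Pdk1, the kinase that holds back pyruvate entry into the mitochondria, was at 1071, 1170 and 1050 in libraries labelled Txn1 KO and at 1202, 1211 and 1144 in WT libraries. Its groups overlapped, and its log2 change of -0.11 had an adjusted p of 0.166.

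Hif1a did not pass, and of the 2 measured HIF prolyl hydroxylase genes in the set, Egln3 rose. Hif1a was at 2046, 2041 and 1877 normalized counts in libraries labelled Txn1 KO and at 1936, 2088 and 2068 in WT libraries, a log2 change of -0.03 with an interval of -0.133 to 0.071. HIF-1α is controlled mainly as a protein, which these data do not measure. Egln1, the main oxygen sensor among the hydroxylases, had a log2 change of 0.01 (adjusted p = 0.905). Egln3, which encodes PHD3 and is itself a HIF target (chr12:54178981-54203860, minus strand), was at 89.3, 115.8 and 94.2 normalized counts in libraries labelled Txn1 KO and at 67.2, 69.9 and 65.4 in WT libraries. The groups did not overlap, and library Txn1 KO 2 was the highest. The log2 change of Egln3 was 0.55 ± 0.17 (SE; limma adjusted p = 0.0262). This call depends on single libraries: the adjusted p was 0.131 without Txn1 KO 2, where the log2 change was 0.436. It was 0.0613 without WT 1, 0.0538 without WT 2, 0.0858 without WT 3 and 0.105 without both libraries that hold liver transcripts, with log2 changes of 0.545, 0.573, 0.525 and 0.581, about as large as with all libraries.

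The other hypoxia targets were mostly close to WT, with 1 of 6 called. P4ha2, which encodes a collagen prolyl hydroxylase subunit (chr11:54100095-54131665, plus strand), was at 302.6, 301.4 and 327.03 normalized counts in libraries labelled Txn1 KO and at 254.7, 237.8 and 233.1 in WT libraries. The groups did not overlap, and its log2 change was 0.36 ± 0.091 (SE; limma adjusted p = 0.00891). Without the 2 libraries with liver transcripts its log2 change stayed at 0.36 and its adjusted p was 0.0563. Its partner gene P4ha1 had a log2 change of 0.08 and did not pass.

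Ndrg1, a stress-response gene, was at 3384, 3469 and 3593 normalized counts in libraries labelled Txn1 KO and at 3139, 3369 and 3193 in WT libraries. Vegfa, the blood vessel growth factor gene, was at 2840, 2807 and 2900 in libraries labelled Txn1 KO and at 2788, 2578 and 2779 in WT libraries. The groups of both genes stood apart without overlap, yet neither passed, with log2 changes of 0.11 for Ndrg1 and 0.07 for Vegfa and limma adjusted p of 0.0740 and 0.269. Without WT 2 the adjusted p of Ndrg1 was 0.0418. Bnip3, a mitophagy receptor gene, had a log2 change of 0.09 (adjusted p = 0.383), and 47.2% of its exonic 50-base stretches occur in other genes. Ankrd37, a HIF target that encodes an ankyrin repeat protein, had the fewest counts of the set, at 40.6, 47.8 and 40.4 in libraries labelled Txn1 KO and at 60.1, 39.6 and 40.2 in WT libraries. Its highest value came from WT 1, one of the libraries with liver transcripts, and its log2 change was -0.10 with all libraries and 0.138 without both of these; its interval of -0.596 to 0.406 was the widest among the 19 genes that did not pass.

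Ratios between related genes describe the same changes within a family. A ratio of 2 genes in the same library does not depend on how libraries were scaled. Ldhb, whose subunit favours turning lactate back to pyruvate, stood at 0.0450, 0.0418 and 0.0410 of Ldha in libraries labelled Txn1 KO and at 0.0246, 0.0216 and 0.0211 in WT libraries, in normalized counts not adjusted for length. That is a 1.90-fold difference, 0.93 on the log2 scale. The ratio of Slc2a6 to Slc2a1 was 0.719, 0.748 and 0.692 in libraries labelled Txn1 KO and 1.458, 1.496 and 1.602 in WT libraries. So Slc2a6 had fewer counts than Slc2a1 in every library labelled Txn1 KO and more in every WT library, a log2 difference of -1.08.

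The other ratios moved less. On the log2 scale, Hk2 over Hk1 differed by 0.26, Egln3 over Egln1 by 0.54 and P4ha2 over P4ha1 by 0.28, all higher in libraries labelled Txn1 KO. Lower there were Pfkm over Pfkl at -0.24, Pfkp over Pfkl at -0.29, Pfkfb4 over Pfkfb3 at -0.32, Aldoc over Aldoa at -0.32 and Slc16a1 over Slc16a3 at -0.43. Hk3 over Hk1 differed by -0.06, with overlapping groups. Of the 11 ratios, 10 did not overlap, and each of these had a two-sided exact permutation p of 0.1, the smallest that 3 against 3 libraries allow, and a Benjamini-Hochberg value of 0.11 over the 11. None could therefore reach 0.05. Each of the 10 contains a gene called above, and Hk3 over Hk1 contains none, so the count adds nothing to the calls of single genes. Without the 2 libraries with liver transcripts the differences were 0.17 for Hk2 over Hk1 and -0.12 for Hk3 over Hk1.

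**Figure D3:**
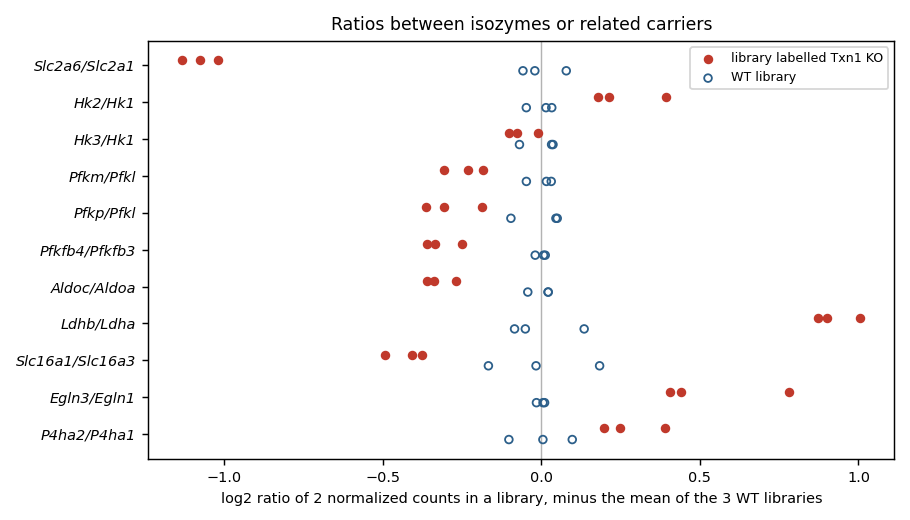
Each row is a ratio of 2 genes' normalized counts, on the log2 scale minus the mean of the 3 WT libraries, with filled points for libraries labelled Txn1 KO and open points for WT libraries. Slc2a6 over Slc2a1 lies about 1.08 below WT and Ldhb over Ldha about 0.93 above it, and the groups overlap only for Hk3 over Hk1.

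Divided by exon length, the values give each gene's share of its family. The length is that of all annotated exons of a gene joined, which can exceed that of any 1 transcript. Slc2a1 made up 44.6% ± 0.862 of the 5 measured glucose transporter genes in libraries labelled Txn1 KO and 28.5% ± 0.989 in WT libraries, and Slc2a6 made up 35.0% ± 0.716 in libraries labelled Txn1 KO and 47.2% ± 0.661 in WT libraries (SD, n = 3 each). The leading transporter gene was thus Slc2a1 in libraries labelled Txn1 KO and Slc2a6 in WT libraries. The sum over the 5 was 1882 to 1960 normalized counts per kb in libraries labelled Txn1 KO and 1769 to 1887 in WT libraries. Hk3 dominated the hexokinases in both groups, with 84.8% ± 0.0982 in libraries labelled Txn1 KO and 86.4% ± 0.346 in WT libraries. Pfkl held 41.2% ± 0.893 of the phosphofructokinase genes in libraries labelled Txn1 KO and 36.8% ± 0.718 in WT libraries. These shares depend on the lengths used, 6675 bases for Pfkl and 13401 for Pfkp. In normalized counts not divided by length, Pfkp was above Pfkl in every library, with ratios of 1.55 to 2.06. Slc16a3 held 80.3% ± 0.289 of the 3 measured lactate transporter genes in libraries labelled Txn1 KO and 74.4% ± 1.80 in WT libraries. Aldoa held 96.5% ± 0.116 of the sum of Aldoa and Aldoc in libraries labelled Txn1 KO and 95.6% ± 0.107 in WT libraries. Egln3 was the rarest of the HIF prolyl hydroxylase genes at 3.96% ± 0.474 in libraries labelled Txn1 KO and 2.51% ± 0.119 in WT libraries.

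RefSeq promoter windows were available for 31 of the 32 genes, Adm included, over 45 starts. At least 1 hypoxia core, ACGTG or GCGTG on either strand, occurred in 29 of these 31 genes, beside 41.0% of 27025 genes with a window of the same length. At least 2 occurred in 21 of 31 (67.7%), beside 18.3% of all genes; a CACGTG holds the core on both strands and counts as 2. Counted by start, 37 of the 45 starts hold a core, beside 38.0% of all 32851 starts. The windows of these genes are rich in G and C, with a median of 60.8% against 52.2% over all starts. Of the 8500 starts at or above 60.8%, 63.9% hold a core. In the counts by gene, a gene with several starts counted if any of them held a core. The set was named partly for known HIF targets, so its share is not an independent result. The letters were present in 10 of 10 that rose, 2 of 2 that fell and 16 of 18 that did not pass. Of the sequences printed above, that of Slc2a6, which fell, holds 4 matches. Those of Ldha, which fell, and Bnip3, which did not pass, hold 5 matches each, while those of Slc2a1, Pgk1 and Slc16a3, which rose, hold 2 each. The window of the other Ldha start, not printed, holds 1 match. The nearest match to a start among the printed sequences lies at -14 in Slc16a3, counted back from the start of transcription. The core of the antioxidant response element, TGACNNNGC on either strand, occurred in 3 of 31 genes, beside 11.3% of all genes. A match is a string of letters and not a bound site.

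**Figure D4:**
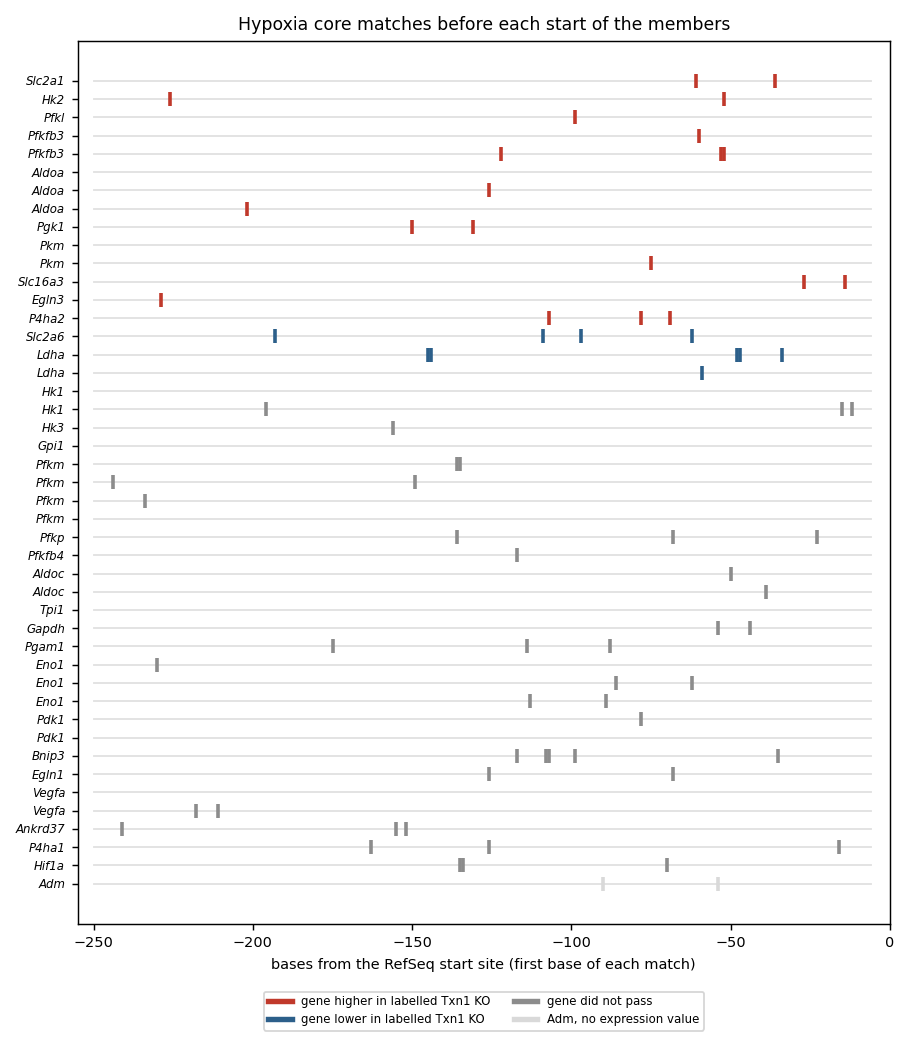
Each line is 1 RefSeq start of a gene, from 250 to 6 bases before the start of transcription, and each tick is the first base of a hypoxia core match. Ticks are coloured by whether the gene was higher, lower or did not pass in libraries labelled Txn1 KO against WT, and they occur in all these classes.

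Other genes of the same pathways were described from 3 further lists. Of 38 other glycolysis genes, 29 were measured, 1 rose and 5 fell, so that 20.7% were called, beside 21.5% of all genes. Their median log2 change was -0.019, against -0.005 for all genes. The one that rose was Ldhb, at 821.9, 735.8 and 726.7 normalized counts in libraries labelled Txn1 KO and at 493.2, 435.95 and 422.6 in WT libraries, up by 0.76 ± 0.076 on the log2 scale (SE; limma adjusted p = 1.13e-06). The 5 that fell were the glucose transporter gene Slc2a3 (-0.39), the urate and sugar transporter gene Slc2a9 (-0.24), the monocarboxylate transporter gene Slc16a7 (-0.24), Bsg (-0.12), which encodes the chaperone of lactate transporters, and Pdha1 (-0.14), a subunit of pyruvate dehydrogenase. Slc2a3 was at 348.9, 350.2 and 288.002 in libraries labelled Txn1 KO and at 418.8, 442.9 and 426.8 in WT libraries. Of the 5 measured glucose transporter genes, Slc2a1 rose, Slc2a3, Slc2a6 and Slc2a9 fell, and Slc2a8 did not pass. The count of 5 was 2 without Txn1 KO 1 or without WT 2, 3 without WT 3 and 4 without the 2 libraries with liver transcripts.

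Of 18 regulators of HIF, 17 were measured, 3 rose and 4 fell, with a median log2 change of 0.030. The share called was 41.2%, beside 21.5% of all genes and 33.6% of genes with a mean of at least 1000 normalized counts. Some of these regulators, such as Epas1, lay below that level. The chaperone genes Hsp90aa1 (0.25) and Hsp90ab1 (0.25), whose proteins stabilise HIF-1α, and the coactivator gene Crebbp (0.25) rose. Those that fell were Epas1 (-0.47), which encodes HIF-2α, Cited2 (-0.28), a competitor for the coactivators, Rack1 (-0.26), which promotes HIF-1α loss without oxygen sensing, and Egln2 (-0.21), the third prolyl hydroxylase gene. Epas1 was at 102.01, 105.3 and 115.7 normalized counts in libraries labelled Txn1 KO and at 171.2, 147.6 and 132.5 in WT libraries, without overlap. Vhl, Arnt and Ep300 were among the 10 that did not pass. Without the 2 libraries with liver transcripts, 2 were called higher and 2 lower.

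Of 44 other HIF target genes, 37 were measured, 8 rose and 6 fell, with a median log2 change of 0.061. The share called was 37.8%, beside 21.5% of all genes and 33.6% of genes with a mean of at least 1000 normalized counts. Many of these targets, such as Lox and Mmp9, lay below that level, so the 33.6% describes a more abundant set of genes. Gbe1, the glycogen branching enzyme gene, was at 1355, 1367 and 1459 normalized counts in libraries labelled Txn1 KO and at 835.5, 850.9 and 863.6 in WT libraries. Its log2 change of 0.71 ± 0.052 (SE; limma adjusted p = 2.11e-08) matched that of Slc2a1 in size. Cxcr4 (0.41), a chemokine receptor gene, Bhlhe41 (0.36), a transcriptional repressor gene, Lox (0.64), the collagen cross-linking oxidase gene, and Bnip3l (0.16), a mitophagy receptor gene, also rose. Among those that fell, Mmp9, a matrix protease gene, was at 33.6, 65.1 and 45.8 in libraries labelled Txn1 KO and at 191.6, 150.8 and 205.4 in WT libraries, and Ddit3 (-0.45), a stress transcription factor gene, and Slc2a3 (-0.39) were also lower. The log2 change of Mmp9 was -1.94 ± 0.21 (SE; limma adjusted p = 2.88e-06), larger than that of any of the 31 genes. Without the 2 libraries with liver transcripts, 7 of these targets were called higher and 4 lower.

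Markers of connective tissue cells also differed between the groups, and their part in the values of matrix genes such as Lox, Mmp9 and P4ha2 was not tested. All 12 stromal markers were measured and none was at 0. Their sum was 2569 to 3875 normalized counts in libraries labelled Txn1 KO and 4169 to 4827 in WT libraries. Of the 12, 7 fell and 2 rose, beside 9.97% called lower and 11.5% called higher among all genes. In bulk RNA, fewer cells of a type and less RNA per cell cannot be told apart. Of 10 neutrophil markers 6 were measured, with sums of 293.4 to 354.7 in libraries labelled Txn1 KO and 304.7 to 329.5 in WT libraries; Cxcr2 rose (1.80 on the log2 scale), and S100a9 (-0.83) and Ngp (-0.83) fell.

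**Figure D5:**
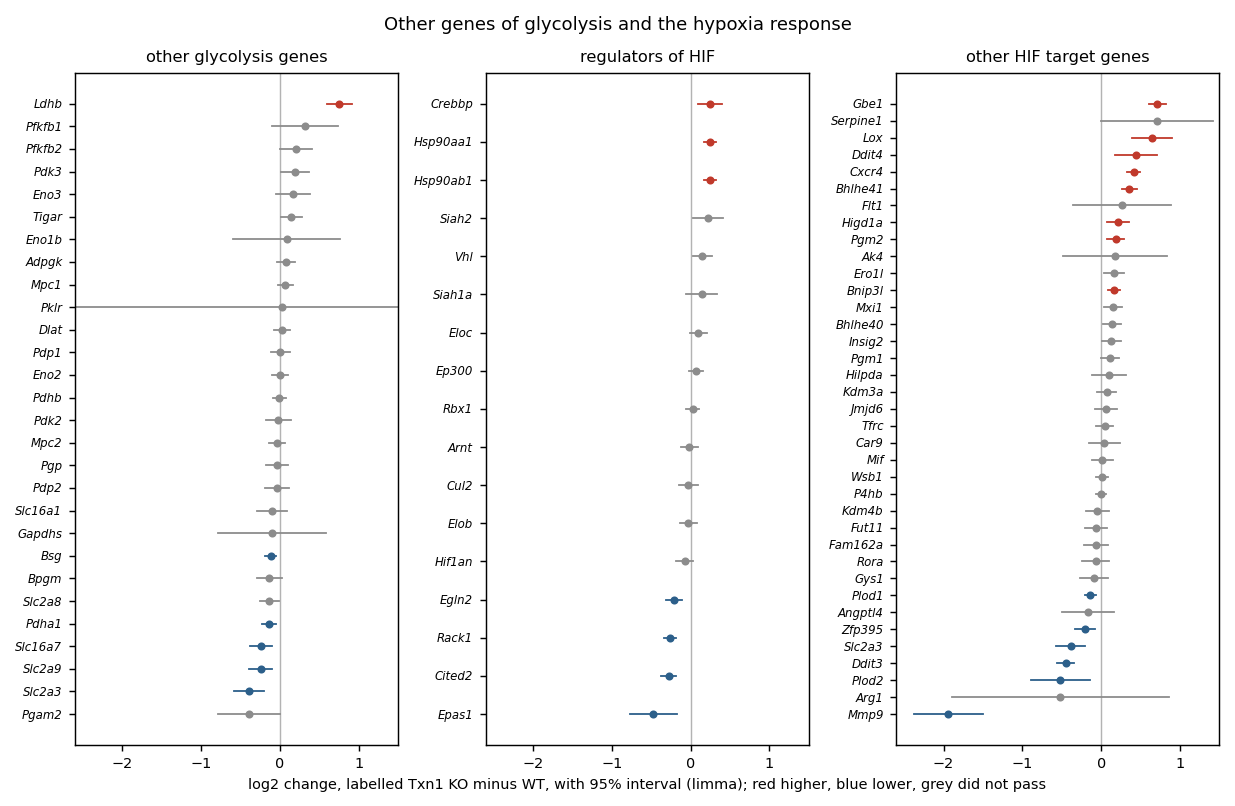
Points are log2 changes, labelled Txn1 KO minus WT, with 95% intervals from limma for measured genes of 3 lists: other glycolysis genes, regulators of HIF and other HIF target genes. One gene of the first list is not drawn, and the interval of Pklr runs past the axis; Mmp9 at -1.94 and Ldhb at 0.76 are the called genes farthest from 0.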

How the data were processed

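RNA of BMDM in 6 libraries, 3 labelled Txn1 KO and 3 WT, was sequenced after ERCC spike-in and polyA selection with the NEBNext Ultra II kit, per the labels' protocols. The submitters' processing notes name the tools bcl2fastq 2.20, Trimmomatic 0.36, STAR 2.5.2b and DESeq2 and the build GRCm38 (mm10). The counting of reads, any use of strand and the gene models were not given in the sources used here. In the deposited table each library's signal equals a read count over that library's size factor: 100% of values are whole multiples of the smallest step at a tolerance of 0.01 reads, and 1 read is worth 0.777 to 1.35 normalized counts. The deposited table also holds the authors' log2 fold changes and p-values, used only as an alternative. Control columns carry only the name BMDM with a number, and they stand here for WT by that number; "Phi" in all column names is not explained.

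Genes with a mean of at least 10 (13977 of 14005) were tested with limma 3.58.1 in R 4.3.3 (lmFit, eBayes with trend) on log2(normalized count + 1), with Benjamini-Hochberg adjustment. Isozyme ratios had an exact permutation test. Count tests on the recovered reads (edgeR 4.0.16, DESeq2 1.42.0, limma-voom), other scalings, pseudocounts and filters, a replicate block and left-out libraries were alternatives. Counting intervals and floors cover counting error only. Positions, lengths and shared 50-base stretches are from GENCODE M21 and promoters from RefSeq. All 32 genes, the called genes of 3 lists (at most 8 by p), Txn1, Lyz2 and copies were named by rule. The genes and lists were chosen with earlier results of these data known. Scripts were tested on simulated data. One gene counted in the list of other glycolysis genes is not reported here.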

Additional observations from a re-analysis of the deposited data

How the results depend on the processing

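The calls and directions of the 31 genes were the same as reported under TMM scaling, equal totals, pseudocounts of 0.5 and 5, no filter on low values, and edgeR, DESeq2 and limma-voom on the recovered reads; the same held for the deposited statistics, and for the 30 genes left at a mean of at least 50. With the replicate number as a block, 1433 genes were higher and 1242 lower over all genes, beside 1607 and 1394 without it, and none of the 31 calls changed. The deviations of same-numbered libraries from their group means had correlations of -0.268, 0.137 and -0.328. Those of Txn1 KO 3 and WT 1, the libraries with liver transcripts, had a correlation of 0.432. Deviations of 3 libraries from their own mean depend on each other, so these values cannot decide whether the numbers pair the samples.

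Leaving out single libraries gave 9 to 10 higher and 2 lower of the 31, 1197 to 1516 higher and 891 to 1304 lower over all genes, and 2 to 4 lower among other glycolysis genes, where the full set gave 5. Egln3 was the only one of the 12 called genes that lost its call there, with log2 changes of 0.436 to 0.622, and Ndrg1 gained one without WT 2. Genes that did not pass and changed sign had log2 changes of -0.064 to 0.021 (Gpi1), -0.015 to 0.030 (Pfkfb4), -0.049 to 0.040 (Pgam1), -0.017 to 0.034 (Egln1), -0.197 to 0.097 (Ankrd37) and -0.065 to 0.010 (Hif1a). Without both libraries that hold liver transcripts, Egln3 and P4ha2 lost their calls, 2 regulators of HIF were lower, and the log2 ratio differences were 0.172 for Hk2 over Hk1 and -0.124 for Hk3 over Hk1. The signs of Gpi1 (0.009), Pfkfb4 (-0.027), Aldoc (0.007), Pgam1 (0.030) and Ankrd37 (0.138), none of them called, also changed; the cause was not tested. Egln3 and Ankrd37, with the fewest counts, had the largest standard errors of the set.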

Other observations

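Txnip, chosen here after its values were seen, encodes a protein that binds thioredoxin and holds back glucose uptake. It was at 9449, 9001 and 9215 normalized counts in libraries labelled Txn1 KO and at 11354, 11636 and 11607 in WT libraries. The groups did not overlap, and the log2 change was -0.32 ± 0.033 (SE; limma adjusted p = 1.29e-06).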
